A study of Schizosaccharomyces pombe with 25 samples.

Results

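The introns of the protein-coding genes of the fission yeast Schizosaccharomyces pombe were counted, measured and placed within their genes from the gene annotation that accompanied the series. An intron was taken as a gap between consecutive exons of a transcript on chromosome I, III or the modified chromosome II, which the annotation calls IIc, and each distinct gap was counted once. Genes whose name begins with rpl or rps and a digit, most of which encode proteins of the cytoplasmic ribosome, were left out. This gave 5220 introns in 2439 of 4992 protein-coding genes, out of 5354 gaps between exons in all 6968 nuclear genes of the annotation.

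The annotation belongs to a study of the centromeric histone CENP-A (Cnp1 in this yeast), the histone variant H2A.Z (Pht1) and the Swr1 remodeller that inserts H2A.Z into chromatin. The samples, of which there are 25, form 13 groups by precipitated protein and genotype. The CENP-A libraries number 9, of which 4 came from cc2∆:cc1 strains, 1 each of wt, pht1∆, swr1∆ and msc1∆, and 5 from strains without that change, 2 of wt and 1 of each deletion. Myc-tagged H2A.Z was precipitated in 12 samples, 4 each of wt, swr1∆ and msc1∆, myc-tagged Swr1 in 2 wt samples, and Flag-tagged Msc1 in 2 wt samples. No value of a sample enters what follows, so there is no depth or replicate error to give. The counts are a complete census of 1 annotation, and differences between classes of introns are given as sizes, without a test.

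An intron is removed from the transcript by the spliceosome, which recognises short signals at the intron's 5′ end, at a branch-point adenosine and at its 3′ end. The 5′ end is paired with U1 and U6 small nuclear RNA, the branch region with U2 small nuclear RNA, and nearly all eukaryotic introns begin with GT and end with AG in the DNA. Fission yeast is a common model for splicing because many of its genes hold several short introns and because its signals vary more between introns than those of budding yeast.

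The sequences of a few introns across the range of lengths found are given below. Not every one shows each of these signals. All were read 5′ to 3′ on the gene's strand from the RefSeq genome, build ASM294v3, at RefSeq's own coordinates. At a 5′ end the last 6 bases of the exon and the first 10 of the intron are given, with the first 6 of the intron in capitals. At a 3′ end the last 30 bases of the intron are given, with the last 2 in capitals. The CTAAC nearest the end is in capitals too or, where there was none, any match to CTNAN nearest the end (N is any base). The first is the shortest intron of at least 20 bases, the complete 30-base intron 2 of SPAC24B11.14 (chrI:230800-230829, + strand), in which the first 6 bases, the match and the last 2 bases are in capitals. The intron of cit1, for citrate synthase (chrI:2327863-2328646, + strand), and that of atf1, for a stress-response transcription factor (chrII:1546465-1547319, + strand), are among the longest. Intron 1 of cdc2, for the cyclin-dependent kinase of the cell cycle (chrII:1500244-1500285, + strand), lies in a 5′ untranslated region (UTR), and its intron 5 (chrII:1501394-1501447, + strand) in the coding sequence. Intron 12 of trt1, for telomerase reverse transcriptase (chrII:2063273-2063309, - strand), comes from the gene with most introns. The introns of ckb1, for a casein kinase subunit (intron 3, chrI:4504192-4504252, + strand), of pla1, for a poly(A) polymerase (intron 1, chrII:930445-930487, + strand), and of SPBC3D6.16 (intron 1, chrII:1296964-1297021, + strand) are among those whose ends are other than GT and AG.
SPAC24B11.14 intron 2, whole: GTAGTTaacaaacatactctaaaCTTATAG
cit1 intron 1, 5′ end: tttcatGTAAGTgcaa
cit1 intron 1, 3′ end: tttactttttaCTAACttttaaattattAG
atf1 intron 1, 5′ end: aaatagGTATGTgttt
atf1 intron 1, 3′ end: tgtacagacatCTAACtaattctcgtctAG
cdc2 intron 1, 5′ end: ataaacGTATTTtgag
cdc2 intron 1, 3′ end: cattctcgcatctctattaacagatattAG
cdc2 intron 5, 5′ end: ctctctGTAAGAtttt
cdc2 intron 5, 3′ end: ttaagactaattaCTAACcattttgtcaAG
trt1 intron 12, 5′ end: taagagGTGAGTtgct
trt1 intron 12, 3′ end: gctgtcattcctaagttCTAACcgttgaAG
ckb1 intron 3, 5′ end: tataatGCAAGTgccc
ckb1 intron 3, 3′ end: agcttgctcacgtttatCTAACagtaatAG
pla1 intron 1, 5′ end: agaaagGCAAGAtact
pla1 intron 1, 3′ end: ttttgaaattaattatgCTAACtttattAG
SPBC3D6.16 intron 1, 5′ end: cgtttcGTAATTaaaa
SPBC3D6.16 intron 1, 3′ end: gtcctccaataaaCTAATaaggaggacaAA

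The ends of the introns were nearly uniform in their outermost bases and varied further in. Letters could be read for 5088 introns of at least 20 bases that had a partner of the same length and order in the RefSeq annotation of the same gene. Of these, 5080 (99.8%) began with GT and ended with AG. A further 7 began with GC and ended with AG, and they lay in ckb1, alp21, sce3, can1, mnh1, pla1 and mis18. Each of the 7 had GCAAG or GCATG as its first bases, as in the ckb1 and pla1 ends printed above. The remaining intron, in SPBC3D6.16, began with GT and ended with AA.

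Among the 5080 introns with GT and AG, the first 6 bases were GTAAGT in 27.4% and GTATGT in 19.7%. GTAAGA made up 6.63% and GTACGT 5.31%, and 107 different hexamers were seen. Counting from the first base of the intron, position 3 was A in 92.6% and position 5 was G in 88.1%. Position 4 was divided between A (49.96%) and T (36.6%), and position 6 was T in 65.6%. The last base of the exon before the intron was G in 56.4%. At the 3′ end the base before AG was T in 68.3%, C in 19.0% and A in 12.5%, while G stood there in 7 introns (0.138%).

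The branch-like motif CTAAC was frequent near the 3′ end of the introns and rare in the windows around it. CTAAC was present in the last 30 bases of 43.8% of the 5080 introns. Windows of the same length held it in 2.22% at the start of the introns, in 1.42% at the end of the exon before and in 0.947% at the start of the exon after. In introns under 60 bases the first and last 30 bases overlap. With windows of 20 bases, which overlap in fewer introns, the share was 0.610% at the start of the introns and 41.0% at their end. On the opposite strand of the intron's last 30 bases CTAAC was present in 2.26%. The looser pattern CTNAN, of which every CTAAC is also a match, was present in the last 30 bases of 84.6% of introns. That pattern is short and common, and it was present in 34.8% of exon windows before and 33.4% of exon windows after the intron. On the opposite strand of the same intron windows it was present in 53.3%, a share raised by the 3′ splice site itself. There the pattern reads NTNAG on the intron's strand, so the final AG with a T at the fourth base from the end is a match. That base was T in 43.5% of the introns. Where a CTNAN match stood within the last 30 bases and before the final AG, the match nearest the end was CTAAC in 43.4%, CTAAT in 27.6% and CTGAC in 5.70%. In 817 introns no such match stood there, and 72.9% of these held TTAAC in the last 30 bases, against 18.4% on the opposite strand. TTAAC is seen in the 3′ end of cdc2 intron 1 printed above. A match is a run of letters, and use of any of them as a branch point was not measured.

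The share of introns with CTAAC in the last 30 bases was higher in longer introns. It was 31.4% in introns of 30 to 39 bases, 35.4% at 40 to 49, 40.9% at 50 to 59, 48.8% at 60 to 99, 54.5% from 100 up to 200 and 62.3% at 200 bases or more. By place it was 42.2% in 5′ UTR introns, 44.0% in coding introns and 29.6% in the 54 readable 3′ UTR introns. From the A at the fourth base of the CTAAC nearest the end, a median of 11 bases remained to the end of the intron (quartiles 9 and 13), over 2225 introns. The distance was from 8 to 17 bases for the central 90 percent of them, and the extremes were 3 and 26 bases.

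**Figure D1:**
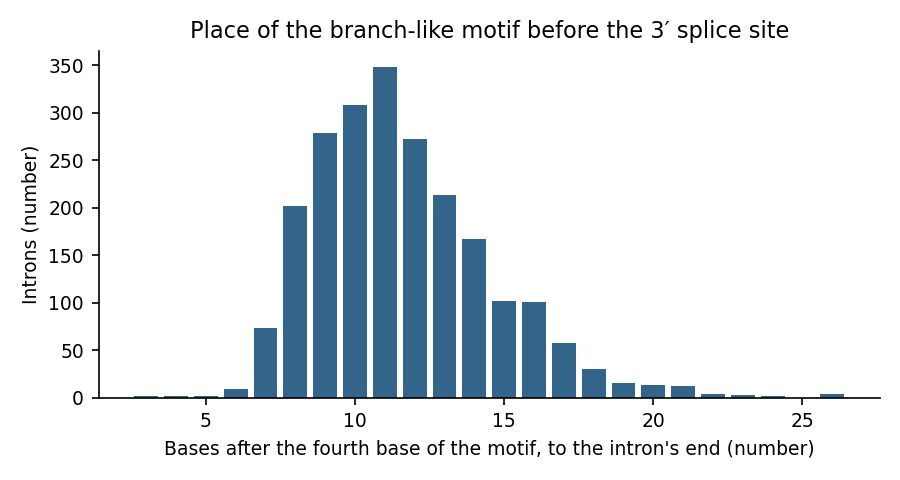
Number of introns (vertical axis) by the number of bases after the fourth base of the CTAAC motif nearest the 3′ end, counted to the end of the intron (horizontal axis), for the 2225 introns with the motif in their last 30 bases. The bars rise to a single peak at 11 bases, with 348 introns, and few introns lie below 7 or above 17 bases.

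Introns were poorer in G and C than the exons beside them, but little or not at all in the UTRs. The median GC share was 28.9% in the introns and 38.3% in the 30 exon bases on each side. The intron had the lower share in 4138 of 4838 introns with exons long enough on both sides (85.5%). Read on the gene's strand, the introns had a median of 39.5% T and 31.3% A. In the 5′ UTR the median was 30.1% in introns and 30.0% in the exon bases beside them, and the intron was the lower in 50 of 100. In the 3′ UTR the medians were 31.6% and 33.3%, and the intron was the lower in 31 of 53 (58.5%).

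The number of introns per gene ranged from none to 15, and genes with more introns were mostly fewer. No intron was annotated in 2553 genes, 1 in 1084, 2 in 651, 3 in 360, 4 in 171 and 5 in 84. The mean was 1.05 introns over all 4992 genes and 2.14 over the 2439 genes with an intron, whose median was 2. The 173 genes with at least 5 introns held 20.5% of the introns, and the 10 genes with at least 10 held 2.28%. Intron bases came to 431318 in all, and made up a median of 7.79% of the span of a gene with introns. The share of genes with an intron was 47.9% of 2276 genes on chromosome I, 50.4% of 1821 on IIc and 48.2% of 895 on III. Only 1 gene had more than 1 annotated transcript, so alternative splicing is almost unrepresented in these numbers.

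**Figure D2:**
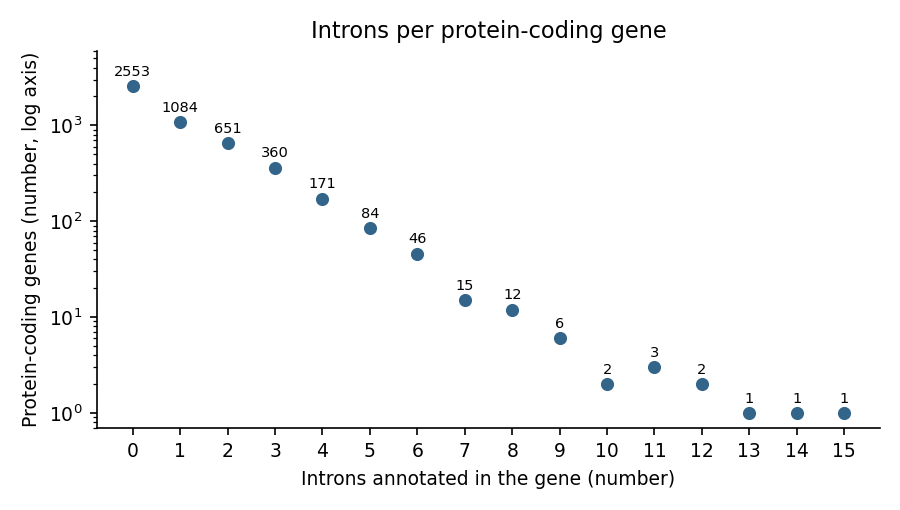
Number of protein-coding genes (vertical axis, logarithmic) with each number of annotated introns (horizontal axis), with each count printed above its point. The points fall from 2553 genes without an intron to 1 gene each with 13, 14 and 15 introns.

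The 15 genes taken as those with most introns encode proteins of varied function, and each had the same number of introns in RefSeq. The last 5 of them are 5 of the 6 genes with 9 introns, which are tied. trt1, for telomerase reverse transcriptase (IIc, bases 2061622 to 2065315 of the deposited annotation, minus strand), had 15 introns of 36 to 71 bases with a median of 41. They were spread along the coding sequence, the first after 8.70% and the last after 94.5% of its 2967 bases. rdh54, for a DNA translocase of recombination, had 14 introns of 35 to 91 bases with a median of 38.5. clr6, for a class I histone deacetylase, had 13 introns in only 1218 coding bases, or 10.7 per kilobase of coding sequence. Introns numbered 12 in trk2, for a potassium transporter, and 12 in SPCC320.04c, which RefSeq names as a GTPase of the contact site between endoplasmic reticulum and mitochondria.

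Next came icp55, for a peptidase, ppk26, for a subunit of a deadenylation complex, and lig4, for the ligase of non-homologous end joining, with 11 introns each. cdc7, for a kinase of the septation initiation network, and ers1, for a factor of RNA silencing, had 10 each. The genes with 9 included srp2, for an RNA-binding protein, mvp1, for a sorting nexin, apc5, for a subunit of the anaphase-promoting complex, and sip1. Intron 5 of mvp1, of 60 bases, had no RefSeq partner of the same length and order, though the number of introns was the same. In these 15 genes the median intron length was between 38.5 and 59 bases, and the only introns outside the coding sequence were 1 of the 9 of sip1, in its 3′ UTR. Measured per coding base, the densest included very small genes. qcr10, for a subunit of the respiratory cytochrome bc1 complex, had 4 introns in 240 coding bases, and erh1 had 5 in 315. dlc2, for a dynein light chain, had 4 in 258, and lsm3, for a subunit of the ring on U6 small nuclear RNA, had 4 in 282.

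The introns had a median length of 56 bases, the quartiles were 46 and 85, and the central 90 percent lay between 39 and 223. The commonest length was 46 bases, with 169 introns. Introns of 30 to 35 bases numbered 24, those of 36 to 39 numbered 290, and those of 40 to 49 numbered 1542 (29.5%). A further 1082 (20.7%) had 50 to 59 bases, 1197 had 60 to 99, 729 had from 100 up to 200, 308 from 200 up to 500, and 24 had 500 or more. Lengths were divided almost evenly by their remainder after division by 3, with 32.0% at 0, 34.3% at 1 and 33.7% at 2.

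A separate class of 24 gaps was under 20 bases, of which 9 were 1 base long, 14 were 2 bases and 1, in SPBPB21E7.02c, was 11 bases. No gap fell between 11 and 30 bases, so the cut at 20 bases separates these from all other introns. The 24 gaps lay in 23 genes, and RefSeq marks 19 of these genes as a low-quality sequence region, a mark that 10 other genes with introns carry. For 17 of the genes these were the only gaps. They include nnf1, for a kinetochore protein, spa1, for the antizyme of ornithine decarboxylase, the splicing factor gene cwf22, and the retrotransposon genes Tf2-10 and Tf2-13. They count among the 5220 introns because the annotation lists them as gaps, and they are left out wherever a number is given for introns of at least 20 bases. The part of sequence quality in them was not tested.

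Introns in the 5′ UTR were longer than those in the coding sequence. The median was 65 bases over 176 introns in the 5′ UTR, 55 over 4985 in the coding sequence and 56 over 59 in the 3′ UTR. The share of at least 100 bases was 32.4% in the 5′ UTR, 19.9% in the coding sequence and 20.3% in the 3′ UTR.

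**Figure D3:**
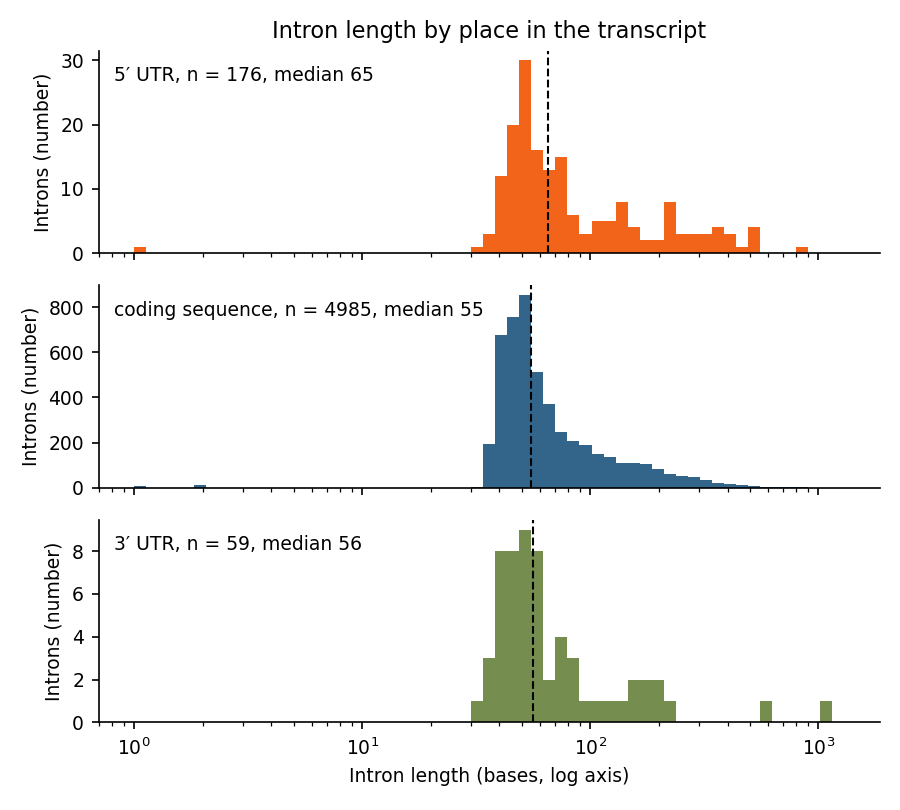
Number of introns (vertical axes, each with its own scale) by length in bases (horizontal axis, logarithmic) in the 5′ UTR, the coding sequence and the 3′ UTR, with the median as a dashed line. The medians are 65, 55 and 56 bases, all 3 histograms have their peak near 50 bases, and the gaps of 1 and 2 bases stand apart on the left.

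The longest introns lay near the start of the coding sequence or outside it. Among the 10 longest, that of atf1 was 855 bases long (IIc, 1546465 to 1547319, plus strand) and lay in the 5′ UTR, 341 exon bases before the start codon. In the coding sequence the longest were 837 bases in SPAC1639.01c, for a fatty acid elongase, after 11.4% of the coding sequence, and 817 bases in SPBC660.16, for phosphogluconate dehydrogenase, after 5.81%. cit1 followed with 784 bases after 0.138% of the coding sequence, prr1, for a stress-response transcription factor, with 756 after 7.41%, and rad25, for a protein that binds phosphorylated proteins in the DNA damage checkpoint, with 717 after 8.24%. SPAC24C9.06c, for aconitase, had 629 bases after 1.39%, and cut6, for acetyl-CoA carboxylase, had 622 after 1.90%. The exception was dbp2, for an RNA helicase, with 699 bases after 78.6% of its coding sequence. The longest gap of all, 1127 bases in SPAC2F3.13c, began directly after the stop codon, and no intron of that length and order is in RefSeq.

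At the other extreme, the 30-base intron 2 of SPAC24B11.14, printed above, was followed by 31 bases in gpi18, for an enzyme of glycolipid anchor assembly. vma11, for a subunit of the vacuolar proton pump, and pof4 had introns of 32 bases, and SPAC26A3.14c, htd2 and wtf18 introns of 33 bases. Those of pof4, htd2 and wtf18 had no partner in RefSeq. In the intron of SPAC24B11.14 the CTNAN match nearest the end, CTTAT, runs directly into the final AG.

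Introns were shorter in genes that held more of them, and within such genes the first was not longer than the others. Among introns of the coding sequence of at least 20 bases, the median was 65 bases in genes with 1, 59 with 2, 56 with 3, 52 with 4, 51 with 5, 48 with 6 and 45 with 9 or more. The share of at least 100 bases fell from 31.0% with 1 coding intron to 2.44% with 9 or more. By order alone, the median was 58 bases for the first and for the second coding intron, 53 for the third, 50 for the fourth, 49 for the fifth and 46 for later ones. In genes with the same number of coding introns that fall was not seen. With 2 introns the medians by order were 58 and 61 bases, and with 3 they were 53, 58.5 and 56. With 5 introns they were 50, 52, 53, 49 and 52 bases. In the 1310 genes with at least 2 coding introns, the first was longer than the median of the later ones in 555 (42.4%), shorter in 731 and equal in 24.

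**Figure D4:**
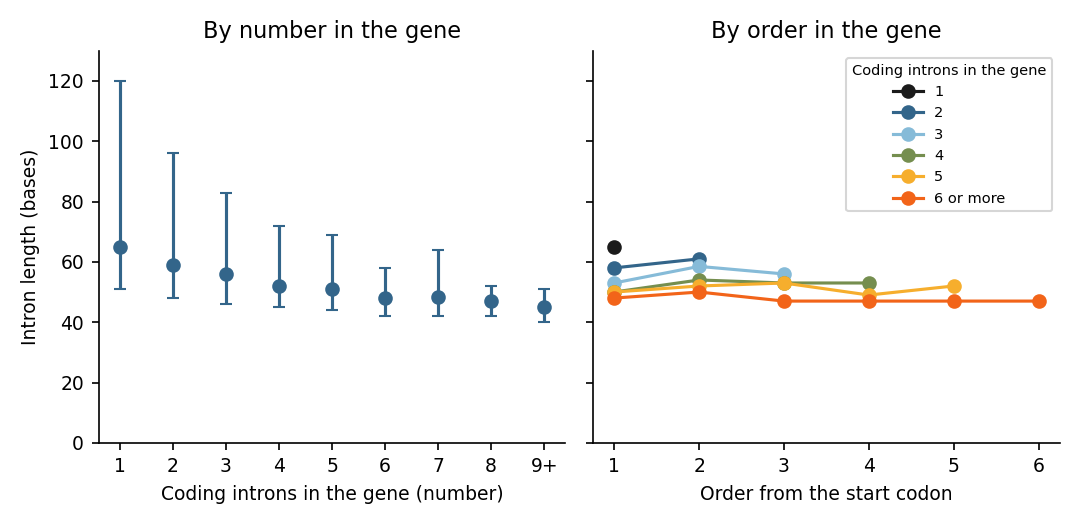
Intron length in bases (vertical axis) against the number of coding introns in the gene (left, points are medians and bars the quartiles) and against the order of the intron from the start codon, with 1 line for each number of coding introns (right, medians). The median falls from 65 to 45 bases on the left, while each line on the right is nearly level.

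Introns were concentrated in the first part of the coding sequence. Over 4962 coding introns of at least 20 bases, 27.1% lay in the first 10% of the coding sequence and 17.4% in the next 10%, while each 10% stretch of the last 60% held between 5.80% and 6.63%. The first 20% held 44.5%, the last 20% held 12.7%, and the median intron stood after 25.1% of the coding sequence. The concentration was stronger in genes with a single coding intron, of which 39.7% lay in the first 10% and the median after 14.7%. In genes with at least 5 coding introns, 19.8% lay in the first 10% and the median after 35.3%. Long introns were more frequent in the first part as well. The share of at least 100 bases was 23.7%, 25.9%, 18.8%, 11.4% and 7.92% in the 5 successive stretches of 20%.

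**Figure D5:**
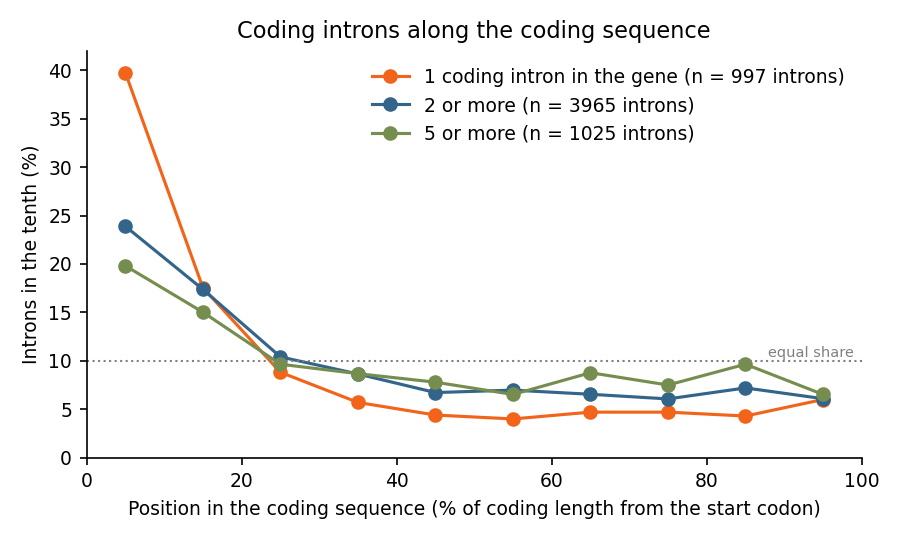
Share of coding introns in percent (vertical axis) in each 10% of the coding sequence from the start codon (horizontal axis, percent of coding length), for genes with 1 coding intron, with 2 or more and with 5 or more, with the equal share of 10% dotted. The first 10% holds 39.7%, 23.9% and 19.8%, and beyond 30% every point lies below the dotted line.

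Several introns stood within or directly after the start codon. In 2307 genes with a coding intron of at least 20 bases, the first stood a median of 111 coding bases from the start, and in 47.2% of them within 100. Within 30 coding bases of the start there were 332 introns, against 73 within 30 of the end of the stop codon. The start codon itself was split in 4 genes. In trr1, for thioredoxin reductase, an intron of 299 bases followed the first base, and in cit1, exo70, for a subunit of the exocyst, and mpc1 an intron followed the second base. The cit1 end printed above, tttcatGTAAGTgcaa, shows the first 2 bases of the start codon directly before the intron. Introns of 36 bases in cct2, for a chaperonin subunit, of 51 bases in adf1, for cofilin, and of 65 bases in smb1, for a core protein of the spliceosomal particles, came directly after the complete start codon.

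The exons that the introns delimit differed in length by their place. The first coding exon had a median of 111 bases, internal coding exons 135 and the last coding exon 450. Of 2655 internal coding exons, 119 were no longer than 30 bases. The shortest were 3 bases in trk2 and 4 bases in rmt1, ubc1, mug16 and SPAC8C9.05. Internal exons of a multiple of 3 bases numbered 984 (37.1%).

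Longer coding sequences did not hold more introns. With the genes divided into 4 classes of nearly equal size by coding length, the mean number of coding introns was 1.01, 0.978, 0.978 and 1.03 per gene from the shortest to the longest class. The density fell, from 2.22 per kilobase of coding sequence to 1.05, 0.676 and 0.361. A coding intron was present in 52.4%, 47.5%, 43.6% and 42.7% of the genes in these classes. Among the longest genes, sib1, for the synthetase of the siderophore ferrichrome, had 1 intron in 14775 coding bases and tra2 had 1 in 10968. SPCC737.08, for midasin of ribosome assembly, had none in 14154 and dhc1, for the dynein heavy chain, none in 12591. At the other end, the pheromone precursor genes mfm1, mfm2 and mfm3, of 129, 135 and 126 coding bases, each had 1 coding intron, and mfm1 had another in the 5′ UTR.

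By place in the transcript, 4985 introns (95.5%) lay in the coding sequence, 176 (3.37%) in the 5′ UTR and 59 (1.13%) in the 3′ UTR. The 5′ UTR introns belonged to 168 genes, of which 97 had introns nowhere else, and no gene had more than 2 there. The longest after that of atf1 were 543 bases in gpd3, for glyceraldehyde 3-phosphate dehydrogenase, 514 in nrc1, 512 in pmd1, for a drug exporter, and 495 in hrp3, for a chromatin remodeller. The gpd3 intron ended 6 exon bases before the start codon and that of hrp3 5 bases before it, while the median over 175 such introns was 158 exon bases.

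The 3′ UTR introns belonged to 56 genes, and 18 of these had introns nowhere else. spt20, for a subunit of the SAGA complex, vrp1, for verprolin, and SPCC553.05c had 2 each. The 59 introns stood a median of 415 exon bases after the stop codon, and 48 of the 59 lay more than 50 bases from it. Besides that of SPAC2F3.13c, those directly after a stop codon were 566 bases in SPAC16E8.02 and 32 bases in pof4, and neither had a partner in RefSeq.

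The places were not equally shared with RefSeq. A RefSeq intron of the same gene, length and order was found for 5099 of 5220 introns (97.7%). By place it was found for 99.1% of coding introns and 93.2% of 3′ UTR introns, but for 102 of 176 5′ UTR introns (58.0%). Of the 73 5′ UTR introns of at least 20 bases without a partner, 72 belonged to a gene that RefSeq holds. In 68 of these the RefSeq 5′ UTR was no longer than the distance from the intron to the start codon, so that the intron lay outside the RefSeq transcript. The unpaired 5′ UTR introns stood a median of 236 exon bases from the start codon and had a median length of 53 bases, against 106 and 76 bases for the paired ones. RefSeq in turn held 34 introns in these genes with no partner, 32 of them in coding sequences.

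Introns between codons were the most frequent. Phase 0, in which the intron lies between codons, made up 41.4% of 4985 coding introns, phase 1, after the first base of a codon, 32.7%, and phase 2, after the second base, 25.9%. The order was the same for first and later introns. Among coding introns of at least 20 bases the shares were 42.5%, 31.4% and 26.1% on chromosome I and 42.1%, 31.7% and 26.2% on IIc. On chromosome III they were 37.0%, 38.0% and 25%, with phase 1 ahead of phase 0. The wtf genes, a family of meiotic drivers and their relatives, were all on chromosome III, and 79 of the 81 introns in their 19 genes were in phase 1. Without them the shares on chromosome III were 40.4%, 32.2% and 27.4%. This grouping of the wtf genes was chosen after the phases by chromosome had been seen. Members of the family resemble each other in sequence, so their introns are not separate instances. The pairs of phases on either side of an internal exon were close to the products of their separate shares, with 17.6% against 16.6% for 0 on both sides, 12.2% against 10.9% for 1 and 7.19% against 6.86% for 2.

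Genes grouped by the function of their products differed widely in intron content. The comparison for every list is the 4992 genes, of which 48.9% had an intron, with a median of 0 introns per gene, 0.703 coding introns per kilobase of coding sequence and a median coding length of 1161 bases. The genes of the proteins studied in this series had none. cnp1, pht1, swr1 and msc1, for CENP-A, H2A.Z, the remodeller and its partner, were all without an intron. In the list of these and the other Swr1 complex genes, 6 of 15 had introns, with 3 each in swc4 and vps71, 2 in arp6 and 1 each in swc3, rvb1 and rvb2.

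Small GTPases and ubiquitin-conjugating enzymes had introns in nearly every gene. Of 21 small GTPase genes 19 had an intron, with a median of 2 per gene and 3.96 coding introns per kilobase, and ypt2 and gtr1 had none. ypt5, for a Rab GTPase of the endosome, had 8 introns of 41 to 88 bases, of which 1 lay in the 5′ UTR and 7 in its 636 coding bases, while ras1, ypt4 and arf1 had 1 each. Of 13 genes for enzymes that conjugate ubiquitin or a similar protein 12 had an intron, with a median of 3 per gene and 5.64 coding introns per kilobase. ubc1 and hus5, the latter for the SUMO-conjugating enzyme, had 5 each, and ubc8 had none. Both lists consist of short genes, with a median coding length of 612 and 501 bases.

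All 12 RNA polymerase II subunit genes had an intron, with a median of 2. rpb1, for the largest subunit, had 6 introns of 35 to 92 bases, all within the first 6.79% of its 5259 coding bases. rpb9, with only 342 coding bases, had 4. Among 19 proteasome genes found by name, 15 had an intron and none more than 3, and rpt3, rpn7, rpn11 and pre4 had none.

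The genes of the splicing machinery were divided. Of 34, 21 had an intron, with a median of 1 per gene. cdc5 and prp17, for subunits of the Prp19 complex, had 5 each, and prp3, for a tri-snRNP protein, had 4. All 7 Sm core protein genes on the list had 1 to 3 introns in 234 to 444 coding bases. None was annotated in the long genes spp42 and brr2, of the U5 particle, or in the helicase genes prp16, prp43, cdc28 and prp28. Other long genes on the list had introns. The helicase gene prp22, of 3507 coding bases, had 1, prp10, of 3501, had 2, and cwf10, of 2955, had 3.

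Cell cycle genes ranged from none to 7 introns, and 11 of 21 had one. The checkpoint kinase genes chk1 and cds1 had 7 each, with 1 of those of chk1 in the 3′ UTR. cdc2 had 5, of 42, 68, 72, 101 and 54 bases in their order, the first in the 5′ UTR. The single introns of the cyclin genes cdc13 and puc1 and of the phosphatase gene cdc25 all lay in the 5′ UTR, with 353, 134 and 100 bases. wee1, rum1, plo1 and rad3 had none.

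In the cytoskeleton list 12 of 19 had an intron. nda3, for beta tubulin, had 5, of which the first 4 stood within the first 11.8% of the coding sequence. cdc4, for a myosin light chain, had 4, all in phase 1, and arp3, for a subunit of the Arp2/3 complex, had 4. act1, for actin, and atb2, for an alpha tubulin, had none, and neither did the long myosin genes myo2 and myp2. nda2, also for an alpha tubulin, and myo1, a myosin gene of 3654 coding bases, had 1 each.

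Meiosis genes had introns in 14 of 18, with a median of 1.5. rec11, for a meiotic cohesin subunit, had 8, and crs1, for a cyclin, rec8, for the meiotic kleisin, meu13 and rec12, for the enzyme that makes meiotic double-strand breaks, had 4 each. The introns of rem1, for a meiotic cyclin, and mes1, for a regulator of the second meiotic division, of 85 and 75 bases, were the only ones of their genes. In fission yeast the splicing of some meiotic transcripts, among them those of rem1, crs1 and mes1, is known to be held back during vegetative growth. A gene known for this must have an intron, and the list includes such genes. Its 14 of 18 is therefore not the share among meiosis genes at large. mei2, mei3, mei4 and rec10 had none. Glycolysis stood at the other extreme, with an intron in 1 of 12 genes, that of gpd3 in the 5′ UTR, and no coding intron in any of them.

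Small RNA genes lay inside 11 of the introns, all on the same strand as their host. Of these, 10 were annotated as small nucleolar RNAs, which guide the chemical modification of other RNAs, and 1 as a non-coding RNA. The host introns were in rlp7, cpc2, SPAC6F6.03c, SPAC29A4.02c, SPBC1734.10c and gua1 within the coding sequence, in ade4 in the 5′ UTR, and in spt20, pfd1, ero11 and fta3 in the 3′ UTR. They were 157 to 481 bases long, and the genes inside them 47 to 128 bases. The 3′ UTR held 4 of the 11, with 59 of all 5220 introns.

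The ribosomal protein genes left out above had 78 introns in 68 of 131 genes. Their median length was 78 bases, 44.9% were at least 100 bases, 52.6% of their 76 coding introns were in phase 0, and 64.1% had CTAAC in the last 30 bases. The corresponding values for the other protein-coding genes were 56 bases, 20.3%, 41.4% and 43.8%, and the differences were not tested.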

How the data were processed

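The study's 25 chromatin immunoprecipitation samples were grouped by precipitated protein and genotype from the labels, and no value of a sample was used, so depth per sample is unknown here. Per the submitters' processing notes, the genome build was ASM294v2 and the tools included deepTools 2.5.3, bedtools, BWA, Bowtie2 and SAMtools. The settings were not given in the sources used here. The values used are positions in bases (1-based) in the gene annotation the authors deposited, with no normalisation, and 1 of the 3 files was used.

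Introns were taken as distinct gaps between consecutive exons of a transcript. An intron was called coding when it lay between the first and last coding base of its transcript, start and stop codons included, and phase was the number of coding bases before it modulo 3. Gaps under 20 bases were described apart. RefSeq's sequence and annotation of ASM294v3 were read only at RefSeq's own coordinates, for introns paired by gene identifier (ignoring letter case), length and order. No coordinate was converted. Motifs were searched in windows of 30 bases, or 20 as an alternative, on both strands.

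The genes named are the 15 with most introns (of 6 tied with 9 introns, 5 were taken), the 10 longest and 10 shortest introns, the 5 longest of each place in the transcript, the genes with most UTR introns, the shortest and longest coding sequences, introns with unusual ends, hosts of nested genes and genes of 10 functional lists. The shortest internal exons, the genes named for gaps under 20 bases, for introns at the start or directly after the stop codon, for intron density, for identical or stop-free introns and for long coding sequences without introns, and the wtf genes, were chosen after their values were seen. A few items that this rule names are not reported here. Members and lists were chosen with earlier results of these data known. Of the listed genes, ste9, rpn1, pre1, pre2 and pre5 were not found by name or synonym. Alternatives changed the genes, transcripts, gap lengths, chromosomes and motifs. An alternative was taken as different where a count moved over 1.5 times, or a share or median left its 95% interval. The steps were tested on simulated data of 500 transcripts with 2088 introns, of which all had their length, place, phase and end letters found, and 1667 of 1668 pairs were found. Scripts ran under Python 3.11.15 with scipy 1.17.1, numpy 2.4.6 and matplotlib 3.10.9.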

Additional observations from a re-analysis of the deposited data

How the results depend on the processing

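Of 125 recomputed values, 116 stayed within the limits set for a difference. Many of these could hardly move, so the tally does not measure how firm the results are. Taking only the transcript with most exons gave the same 5220 introns, and counting each gap once per transcript gave 5221. Gaps of at least 20 and of at least 30 bases were the same 5196 introns. The share of introns in the 5′ UTR was 2.0% among introns found in RefSeq, against 3.37%. Leaving out chromosome I gave 2902 introns in 1349 genes, and leaving out IIc gave 3282 in 1521, since fewer genes were counted. In coding bases, the median position was 221 from the start codon, a change of unit from 25.1% of the coding length. The motif share of 43.8% was 41.0% with CTAAC in the last 20 bases, 84.6% with CTNAN and 19.6% with TTAAC. The alternatives TTAAC, no wtf genes, and no UTR introns next to a start or stop codon were chosen after seeing the data. No paired analysis was possible because no value of a sample was used and no result comes from a test.

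The annotation gives almost every gene 1 transcript, so the counts say nothing of how often an intron is used. UTR introns depend on how far each transcript was annotated, and sequence was read only for introns that RefSeq shares.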

Other observations

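Most coding introns held a stop codon in the frame of the exon before. Introns were read on from the exon before in the frame of the coding sequence, leaving out genes with RefSeq's low-quality mark. Of 4904 coding introns of at least 30 bases with readable sequence, 86.1% held a stop codon. The share was 78.9% in introns of 30 to 49 bases, 86.6% at 50 to 99 and 98.3% at 100 or more. It was 90.1% in introns whose length is a multiple of 3, and 83.5% and 85.0% in those with a remainder of 1 and 2. Part of these stops is the TAG at the intron's own 3′ end. Leaving out the last 3 bases, the shares by remainder were 83.8%, 80.9% and 80.1%. By phase, with the last 3 bases left out, they were 78.2% in phase 0, 80.1% in phase 1 and 88.8% in phase 2. A phase 2 intron that begins GTAA reads TAA in frame from its second base. No share was computed for the other frames or for sequence of the same composition, so there is nothing to set beside these values.

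An intron that is both a multiple of 3 long and free of a stop in frame leaves the reading frame open. There were 156 such introns. The longest were 156 bases in mug184, 108 in SPBC13A2.01c and 105 each in yip11 and yip12. Whether any of them is retained was not measured.

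Some introns were identical in sequence to another. There were 18 groups of identical introns with 45 members. The group with most members had 5 copies of a 58-base intron, in SPAC212.01c, SPAC750.06c, SPBC1348.01, SPBCPT2R1.01c and SPBCPT2R1.04c on chromosomes I and II. The yip11 and yip12 genes shared their introns of 105 and 74 bases, and rpn501 and rpn502, a pair of proteasome genes, shared 1 of 47 bases. Most of the other groups included wtf genes on chromosome III.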
